A study of Mus musculus with 36 samples.

Results

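The difference between genotypes in the response to a swim 1 h earlier was examined in the 17 libraries of cohort 1, of 36 libraries in the series. For each gene the quantity is the Shank3 swim response minus the WT swim response, on the log2 scale, and it is called the interaction here. It was negative where Shank3 mice rose less or fell more than WT mice. The libraries were 5 from Shank3(deltaC/+) mice killed 1 h after the swim, 3 from naive Shank3(deltaC/+) mice, 6 from WT mice, Shank3(+/+), killed 1 h after the swim, and 3 from naive WT mice of the same cohort. All 4 groups were littermates that also carried HA-Rpl22(f/+) and Camk2a-Cre(+/-). The controls therefore carried the ribosome tag and the Cre driver too. The swim took place in water at 25 °C and lasted 5 min by one label and 6 min by another. Age and sex are not among the labels, and the labels do not say which animal gave which library, so the p-values reflect variation among libraries, which may be technical.

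Shank3 is a scaffold of the postsynaptic density that links glutamate receptor complexes to the actin cytoskeleton, and the deltaC allele alters the C-terminal part of the protein. In RiboTag mice, Cre recombination adds an HA epitope to the ribosomal protein Rpl22, so that ribosomes of the recombined cells can be pulled down with the mRNA they carry. Camk2a-Cre directs this to forebrain excitatory neurons, here cortical pyramidal neurons. Strong synaptic activity and stress switch on immediate early genes such as Fos, Egr1, Arc and Nr4a1 through calcium, cAMP and ERK signalling to factors already bound at their promoters, among them CREB. A deficit in synaptic signalling could show as a smaller response of these genes, which is what the interaction measures.

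CREB binds the palindrome TGACGTCA and, more weakly, the single site TGACG. The 250 bases before the annotated start are shown for 3 immediate early genes, 2 whose responses were close in the genotypes and Plk2, whose response was smaller in Shank3 mice by an unadjusted p alone. Capitals mark TGACG on either strand, including those inside TGACGTCA. The bases are from RefSeq, GRCm38.p6: Fos chr12:85473640-85473889, Nr4a1 chr15:101266596-101266845 and Plk2 chr13:110394794-110395043, all on the plus strand.
Fos: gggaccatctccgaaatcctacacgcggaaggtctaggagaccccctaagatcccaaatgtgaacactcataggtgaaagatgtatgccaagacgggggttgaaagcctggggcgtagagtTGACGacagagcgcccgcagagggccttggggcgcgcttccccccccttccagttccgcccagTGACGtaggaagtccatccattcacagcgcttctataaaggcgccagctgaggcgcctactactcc
Nr4a1: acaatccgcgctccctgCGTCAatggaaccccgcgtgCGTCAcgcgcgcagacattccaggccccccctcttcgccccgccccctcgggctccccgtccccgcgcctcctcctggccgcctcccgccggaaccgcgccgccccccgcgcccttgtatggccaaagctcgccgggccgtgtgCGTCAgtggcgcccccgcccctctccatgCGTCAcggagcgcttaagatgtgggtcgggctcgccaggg
Plk2: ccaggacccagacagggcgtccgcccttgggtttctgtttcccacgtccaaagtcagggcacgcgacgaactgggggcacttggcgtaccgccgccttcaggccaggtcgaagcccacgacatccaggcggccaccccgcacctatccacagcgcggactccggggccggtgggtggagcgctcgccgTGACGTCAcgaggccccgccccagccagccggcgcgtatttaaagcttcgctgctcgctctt
The window of Fos held 2 single sites, that of Nr4a1 held 4, and that of Plk2 held 2 that overlap as 1 full palindrome. Of all 32851 promoter windows of this length, 17.8% held TGACG and 1.55% held TGACGTCA.

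Total counts in cohort 1 ran from 0.884 to 2.01 M per library. The pyramidal markers Slc17a7, Camk2a and Neurod2 were present in all 17 libraries. The microglial marker P2ry12, the endothelial marker Cldn5 and the blood marker Hbb-bs were at 0 counts in all 17, which allows up to 3 counts in a library. The summed microglial list, which is dominated by 1 row with an opposite neighbour, was lower in swim than in naive libraries of both genotypes, with no overlap and with median sums in CPM (the count scaled to a common library total) of 543 CPM in Shank3 swim, 946 CPM in Shank3 naive, 542 CPM in WT swim and 1057 CPM in WT naive libraries. Aqp4 of astrocytes had 0 to 2 counts, and Gad1 and Gad2 of interneurons had up to 113 and 61 counts. Rows that overlap an exon on the opposite strand held 75.2% of all counts of the series. Where an annotated antisense row overlaps a coding row, the share of their joint counts on coding rows was 14 ± 1.81% in Shank3 swim libraries, 11.3 ± 0.57% in Shank3 naive libraries, 14.4 ± 2.09% in WT swim libraries and 10.8 ± 0.182% in WT naive libraries (SD, n = 5, 3, 6 and 3). The labels do not state whether the counting used the strand, so reads of a gene and of its opposite neighbour cannot be told apart. In 81.9% of 827 such pairs the antisense row held the higher level, and a row named for a gene may hold reads of the other strand, which was not tested. Each value of a gene with an opposite neighbour carries this limit. The difference of differences of the coding row share was -0.854 percentage points (exact two-sided permutation, p = 0.490, adjusted p = 0.993 over 4 library measures). The summed share of ribosomal RNA rows exceeded 5% in 3 libraries, 5.95% in Shank3 swim replicate 4, 6.41% in Shank3 naive replicate 2 and 10.5% in WT swim replicate 5. Shank3 itself (chr15:89499623-89560261, plus strand, build mm10) had 12.5, 7.18, 15.6, 12.2 and 7.58 CPM in Shank3 swim libraries, against 10.1, 10.5 and 16.4 CPM in Shank3 naive libraries. It ran from 5.73 to 11.3 CPM (median 9.67) in WT swim libraries, against 6.92, 11.5 and 9.42 CPM in WT naive libraries. A gene-level count does not separate the alleles, so it does not check the genotype labels. The interaction of Shank3 was -0.08 ± 0.57 (SE), and that of Gm15609, the row on the opposite strand, was -0.20 ± 0.39.

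No gene passed the test of the interaction. Of 11341 genes, 0 had an adjusted p under 0.05 in edgeR (0%), and DESeq2 and limma also called 0. At an unadjusted p under 0.05 edgeR counted 468 genes (4.13% of those tested), 95 higher and 373 lower in Shank3 mice than in WT mice, DESeq2 345 and limma 411. The smallest adjusted p was 0.221, for Ppm1d. Each response on its own was broad. The swim changed 1388 genes in Shank3 mice (12.2% of those tested), 566 higher (4.99%) and 822 lower (7.25%), against 3879 genes in WT mice (34.2%), 1917 higher (16.9%) and 1962 lower (17.3%). That fewer genes passed in one genotype is not a test of a difference, and the test of the difference called none. The Shank3 count also rested on single libraries: it was 58 without Shank3 naive replicate 2, 205 without Shank3 naive replicate 3 and 254 without Shank3 swim replicate 3.

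The genotypes' responses had no library in common and ran together. Of the WT-changed genes 97.3% had the same direction in Shank3 mice, beside 83.6% of all genes tested. The overlap of the calls was 1162 genes, 83.7% of the Shank3-changed and 30.0% of the WT-changed genes, and 1161 of them changed in the same direction. Across all 11341 genes the fold changes had a Spearman rho of 0.76 and a Pearson r of 0.67, and across the 5904 genes with a mean log2 CPM above 4 the Pearson r was 0.90 (across genes, which are not independent, and with scaling shared by all libraries). The 95% interval of the interaction had a median half-width of 1.06 on the log2 scale. It lay within 1 log2 unit of 0 for 2585 genes (22.8%), and for the other genes the interval reached differences beyond that size.

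**Figure D1:**
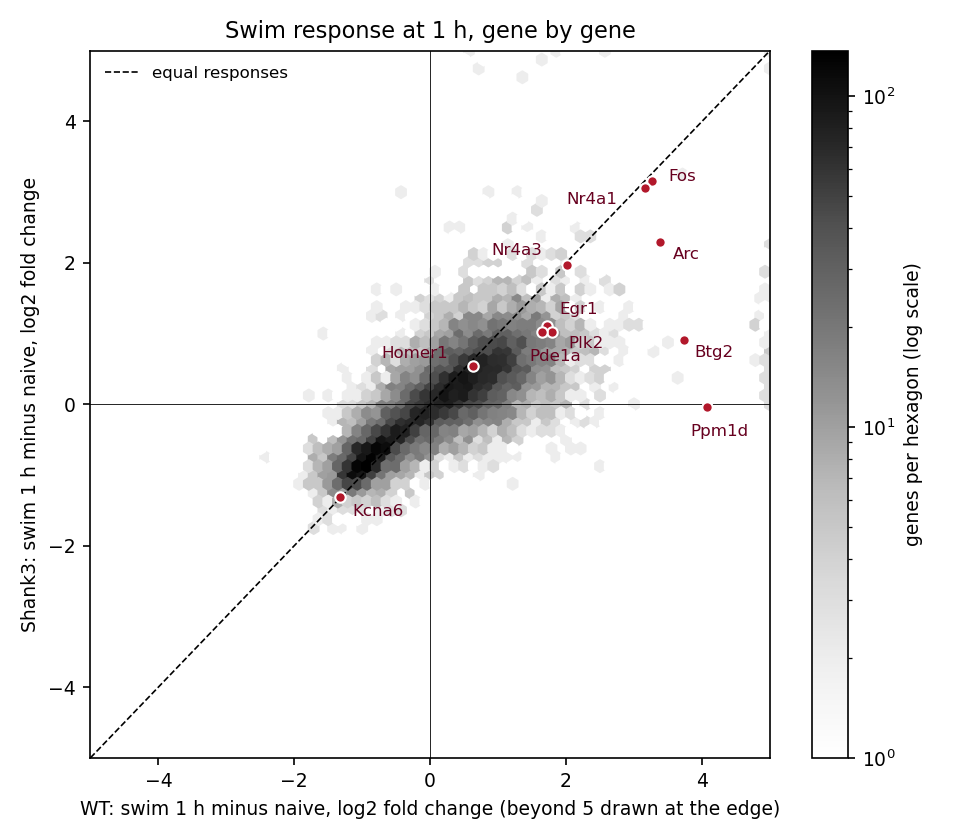
Swim response of each gene, as the log2 fold change of swim over naive, in Shank3 mice (vertical axis) against WT mice (horizontal axis), with grey hexagons shaded by the number of genes and named genes in red. The dashed line marks equal responses: Fos, Nr4a1, Nr4a3 and Kcna6 lie on or near it, and Arc, Egr1, Plk2 and Ppm1d lie below it.

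The immediate early transcription factors Fos, Egr1, Nr4a1 and Nr4a3 rose in both genotypes, and the interactions of Fos, Nr4a1 and Nr4a3 were close to 0 with wide intervals. Fos had 25.6, 22.2, 26.2, 27 and 19.5 CPM in Shank3 swim libraries, against 5.05, 2.32 and 0 CPM in Shank3 naive libraries. It ran from 18.2 to 44.4 CPM (median 23.7) in WT swim libraries, against 5.19, 2.3 and 1.57 CPM in WT naive libraries. All swim libraries of both genotypes lay above all naive libraries. Fos, an AP-1 subunit and the standard marker of recently active neurons, rose by 3.16 ± 0.56 log2 units in Shank3 mice (SE, edgeR adjusted p = 7.09e-04) and by 3.26 ± 0.57 in WT mice (adjusted p = 4.23e-04). Its interaction was -0.10 ± 0.99 (95% interval -2.11 to 1.90, unadjusted p = 0.921, adjusted p = 1).

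Nr4a1 had 18.1, 13.7, 17.5, 20.9 and 12.5 CPM in Shank3 swim libraries, against 1.01, 2.32 and 2.53 CPM in Shank3 naive libraries. It ran from 10.1 to 31.1 CPM (median 22) in WT swim libraries, against 0, 3.45 and 3.14 CPM in WT naive libraries. The groups of each genotype did not overlap. Nr4a1, an orphan nuclear receptor induced by activity, rose by 3.06 ± 0.68 in Shank3 mice and 3.17 ± 0.67 in WT mice, and its interaction was -0.10 ± 1.21 (-2.54 to 2.33). Its relative Nr4a3 rose by 1.97 ± 0.44 in Shank3 mice and 2.01 ± 0.50 in WT mice, with an interaction of -0.04 ± 0.74. Nr4a2, the third member, had fold changes of 1.53 ± 0.68 in Shank3 mice and 1.91 ± 0.68 in WT mice, of which only that of WT mice passed the threshold, and an interaction of -0.38 ± 1.08. The medians of the 3 members were 1.97 in Shank3 mice and 2.01 in WT mice.

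Egr1 had 102, 107, 111, 107 and 109 CPM in Shank3 swim libraries, against 44.5, 45.3 and 60.7 CPM in Shank3 naive libraries. It ran from 89.4 to 196 CPM (median 115) in WT swim libraries, against 36.3, 43.7 and 34.5 CPM in WT naive libraries. The Shank3 swim libraries lay within a narrow band inside the WT swim range, and swim and naive libraries did not overlap in either genotype. Egr1, a zinc finger factor of the Egr family, rose by 1.10 ± 0.31 in Shank3 mice and 1.71 ± 0.33 in WT mice, with an interaction of -0.61 ± 0.44 (-1.50 to 0.27, unadjusted p = 0.169). Egr2 had 10, 3, 13, 11 and 9 counts in Shank3 swim libraries, against 0, 3 and 0 counts in Shank3 naive libraries. It had 4, 20, 16, 6, 3 and 7 counts in WT swim libraries, against 0 in each WT naive library. Egr2 was therefore 4.87-fold higher after the swim in Shank3 mice (95% counting interval 1.57 to 24.5) and at least 4.49-fold higher in WT mice, against a floor of 3 counts over the naive group. The 6 measured Egr genes had a median interaction of -0.66, with 4 below 0, and 0 passed the test. Of all genes tested, 55.0% had an interaction below 0. The median was -0.32 with Egr2 set by a floor of 3 counts per group in place of its fitted value. That value of Egr2, -0.03, was scaled by raw library totals, and the fold values above by TMM library sizes.

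Other AP-1 genes and rapid regulators mostly had small interactions with wide intervals. Fosb had fold changes of 1.56 ± 0.69 in Shank3 mice and 1.65 ± 0.73 in WT mice and an interaction of -0.09 ± 1.13, and Junb of 0.41 ± 0.36 in Shank3 mice and 0.50 ± 0.38 in WT mice with an interaction of -0.10 ± 0.52. Neither response passed the threshold in either genotype. The 10 measured AP-1 genes had a median interaction of -0.07, beside -0.06 over all genes tested, and it changed sign in 12 of 28 alternative settings. Ier5, an immediate early regulator of the heat shock factor, had 35.5, 25.4, 31.2, 22.7 and 30.9 CPM in Shank3 swim libraries, against 36.4, 37.2 and 26.6 CPM in Shank3 naive libraries. It ran from 21.4 to 45.9 CPM (median 29.5) in WT swim libraries, against 17.3, 19.6 and 7.85 CPM in WT naive libraries. The swim groups overlapped, and the naive groups did not: the Shank3 naive libraries were all higher than the WT naive ones. Ier5 was named by its interaction p, of which the naive difference is a part, so this separation is a description. How many of all genes separate in this way was not counted. The interaction of Ier5 was -1.23 ± 0.42 (unadjusted p = 0.00559, adjusted p = 1). Btg2, an antiproliferative immediate early gene, had an interaction of -2.82 ± 1.30 that rested on 1 count over the 3 WT naive libraries. Dusp1, a MAP kinase phosphatase, had -0.30 ± 0.45, and Per1, a clock gene that glucocorticoids also induce, had 0.17 ± 1.04.

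**Figure D2:**
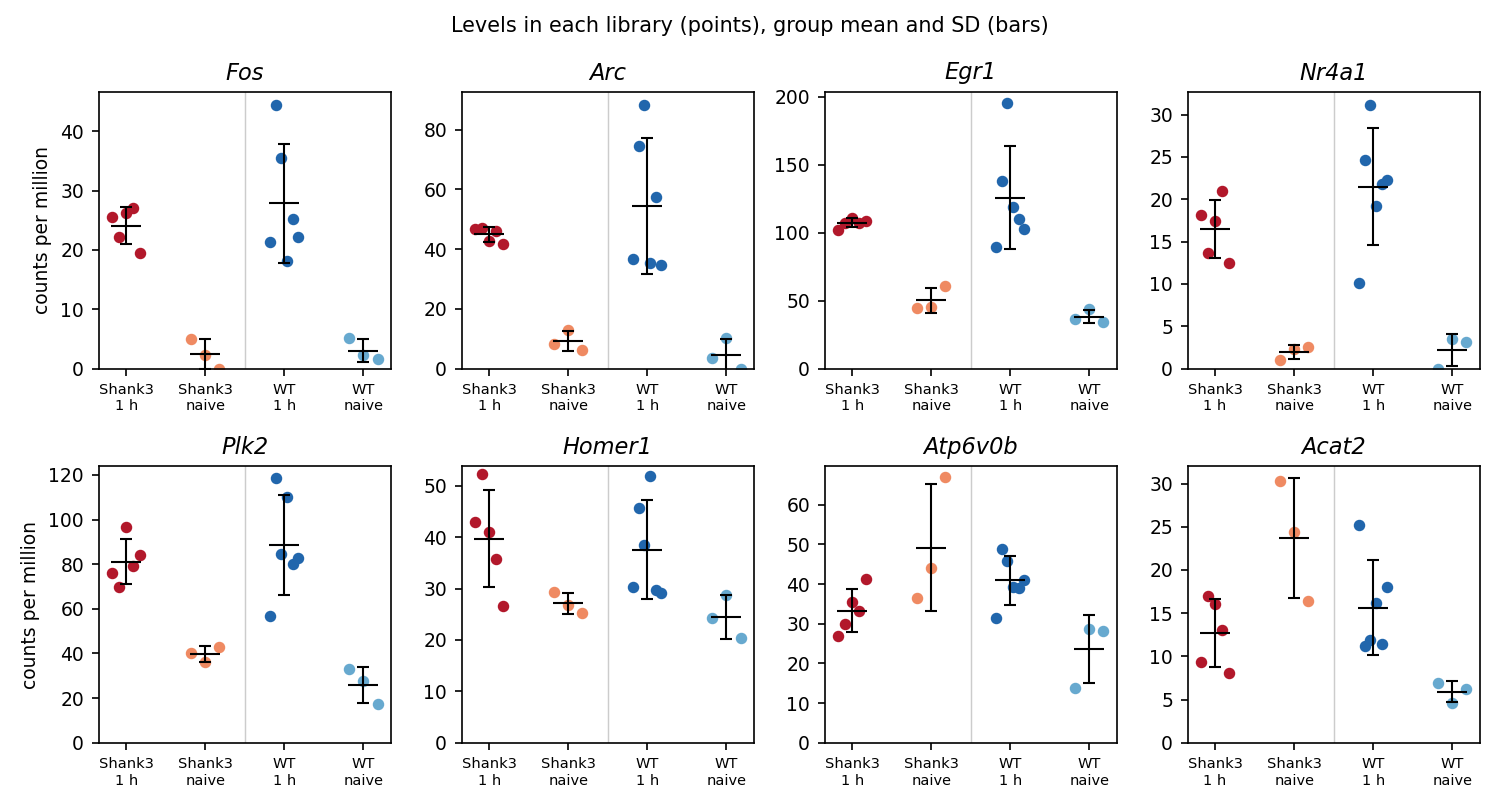
Level in CPM of 8 genes in each library of the 4 groups, with the group mean and SD as bars (n = 5 Shank3 swim, 3 Shank3 naive, 6 WT swim and 3 WT naive libraries, left to right in each panel). Fos, Arc, Egr1, Nr4a1 and Plk2 were higher after the swim in both genotypes, while the WT naive libraries of Atp6v0b and Acat2 sit below most libraries of the other groups.

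Arc and Plk2, synaptic effectors through which activity changes the synapse, rose in both genotypes, with smaller fold changes in Shank3 mice. Arc had 46.7, 47, 42.7, 46.2 and 41.7 CPM in Shank3 swim libraries, against 8.09, 12.8 and 6.33 CPM in Shank3 naive libraries. It ran from 34.7 to 88.1 CPM (median 46.9) in WT swim libraries, against 3.46, 10.4 and 0 CPM in WT naive libraries. The Shank3 swim libraries lay within the WT swim range and all swim libraries lay above all naive ones. Arc, which drives AMPA receptor endocytosis, rose by 2.29 ± 0.67 in Shank3 mice and 3.39 ± 0.77 in WT mice, and its interaction was -1.10 ± 1.13 (-3.38 to 1.19, unadjusted p = 0.334). Single WT naive libraries moved it, to -2.70 with replicate 2 left out and to -0.57 with replicate 3 left out.

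Plk2 had 76, 69.8, 96.5, 79.3 and 84 CPM in Shank3 swim libraries, against 40.4, 36 and 43 CPM in Shank3 naive libraries. It ran from 56.6 to 119 CPM (median 83.5) in WT swim libraries, against 32.8, 27.6 and 17.3 CPM in WT naive libraries. Swim and naive groups did not overlap in either genotype, and neither did the naive groups of the genotypes, Shank3 naive being the higher. The naive difference is a part of the interaction and not a separate result. Plk2, a kinase of homeostatic synaptic weakening, rose by 1.03 ± 0.25 in Shank3 mice and 1.79 ± 0.27 in WT mice, with an interaction of -0.76 ± 0.37 (-1.50 to -0.02, unadjusted p = 0.0427, adjusted p = 1). Rgs4, which turns off G protein signalling, was similar at -0.68 ± 0.33 (unadjusted p = 0.0443). Homer1, a postsynaptic scaffold partner of Shank3, had fold changes of 0.54 ± 0.27 in Shank3 mice and 0.63 ± 0.29 in WT mice and an interaction of -0.09 ± 0.40. Bdnf, the activity-regulated growth factor, had an interaction of 0.21 ± 0.44. Of 12 measured synaptic effectors 9 were below 0, beside 55.0% of all genes, with a median of -0.21, and 0 passed the test. Without WT naive replicate 3 the median was -0.047, close to the -0.050 of all genes in that fit.

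**Figure D3:**
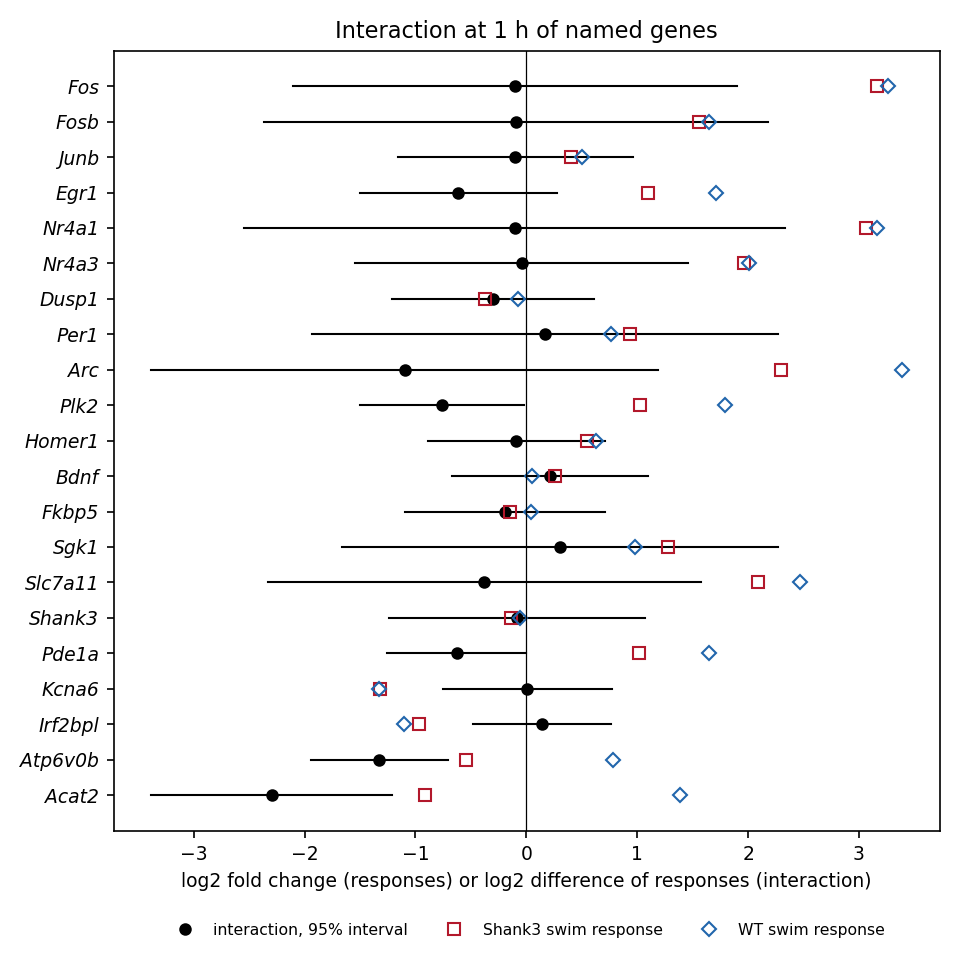
Interaction at 1 h (black points, with 95% intervals) beside the Shank3 swim response (red squares) and the WT swim response (blue diamonds) of named genes, on the log2 scale. Most intervals span 0. Those of Atp6v0b and Acat2, chosen for a small unadjusted p, do not, and those of Plk2 and Pde1a end just below 0.

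Glucocorticoid-responsive genes, which follow the stress hormone corticosterone, had the opposite sign as a list. Of 16 measured, 10 had an interaction above 0, beside 45.0% of all genes. The median was 0.16 and 0 passed. Their median response was 0.56 in Shank3 mice and 0.15 in WT mice, and 1 rose in Shank3 mice and 3 in WT mice, beside 4.99% and 16.9% of all genes. Fkbp5, a glucocorticoid receptor co-chaperone, had an interaction of -0.19 ± 0.45, Sgk1, a kinase, of 0.30 ± 0.97, and Ddit4 and Cdkn1a, growth inhibitors, of 0.91 ± 0.61 and 0.94 ± 0.61. The median of the list was -0.01 without the libraries above 5% ribosomal RNA.

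Genes of energy supply, protein synthesis and protein turnover had smaller median fold changes in Shank3 mice than in WT mice, with no member past the test of the interaction. The 78 nuclear genes of oxidative phosphorylation had a median response of 0.48 in Shank3 mice and 0.89 in WT mice. In Shank3 mice 4 of them rose and 1 fell, and in WT mice 32 rose and 2 fell, beside 4.99% and 16.9% of all genes that rose. Their median interaction was -0.35, with 63 below 0, beside -0.06 over all genes and -0.34 over all genes that the swim raised. Below 0 were 55.0% of all genes and 76.0% of those that the swim raised. The median log2(CPM + 0.5) of the list ran from 3.47 to 4.01 in Shank3 swim libraries, against 3.11 to 3.41 in Shank3 naive libraries. It ran from 3.22 to 4.27 in WT swim libraries, against 2.76 to 3.19 in WT naive libraries. The swim groups of the genotypes overlapped over most of their range.

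The 75 cytosolic ribosomal protein genes had a median interaction of -0.23, with 49 below 0. No gene lies opposite 54 of them, and all genes of that class had a median of -0.21, with 65.5% below 0. Rps6, the ribosomal protein phosphorylated after neuronal activity, had an interaction of -1.14 ± 0.43 (unadjusted p = 0.0107). It had 34.9, 35.2, 67.5, 53.2 and 45.5 CPM in Shank3 swim libraries, against 48.5, 33.7 and 41.7 CPM in Shank3 naive libraries. It ran from 31.5 to 73.6 CPM (median 55.5) in WT swim libraries, against 24.2, 26.5 and 17.3 CPM in WT naive libraries. The Shank3 naive libraries were all higher than the WT naive ones, a difference that is part of the interaction by which Rps6 was named. The 48 translation factors had a median of -0.34 (35 below 0), and 42 proteasome subunits of -0.29 (32 below 0). Eif2s2, the beta subunit of the initiation factor eIF2, had an interaction of -1.62 ± 0.57, and Eif2b3, a subunit of its exchange factor, of -2.76 ± 0.83 with 1 count in each WT naive library. For the 4 lists the medians kept their sign in all 28 alternative settings, between -0.47 and -0.20 for oxidative phosphorylation and between -0.45 and -0.08 for ribosomal proteins. Without WT swim replicate 2 the medians were -0.20 for oxidative phosphorylation and -0.19 for the proteasome. Without Shank3 naive replicate 1 the ribosomal median was -0.08 and without WT naive replicate 3 that of translation factors was -0.15.

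Chaperones and sterol enzymes also had medians below 0. Of 21 cytosolic heat shock chaperones 18 were below 0, beside 55.0% of all genes, with a median of -0.23. Fkbp4, a co-chaperone of Hsp90 and steroid receptors, had -0.85 ± 0.37 (unadjusted p = 0.025), and Hspa4, an Hsp110 chaperone, had -0.56 ± 0.29 (unadjusted p = 0.0555). Of 22 genes of sterol synthesis 15 were below 0, with a median of -0.45 (-0.30 with 1 gene of a group at 0 counts set by the floor), and the median was 0.02 in the fit restricted to genes without an opposite neighbour. Genes of endoplasmic reticulum stress (0.10, 22 measured) and of cystine and glutathione supply (0.13, 13 measured) had medians just above 0, and each changed sign in 1 alternative. Slc7a11, the cystine transporter, had 39.3, 61.3, 249, 41 and 56.3 CPM in Shank3 swim libraries, against 21.2, 19.8 and 22.8 CPM in Shank3 naive libraries. It had 34, 188, 45.2, 238, 45.8 and 41 CPM in WT swim libraries, against 32.8, 19.6 and 3.14 CPM in WT naive libraries. One Shank3 swim library and a pair of WT swim libraries carried most of the rise. Its interaction was -0.38 ± 0.96, and Gclm, which limits glutathione synthesis, had -2.56 ± 0.90.

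Synaptic and excitability genes outside the activity programme had medians between -0.25 and -0.10. The lists were voltage-gated ion channels (-0.25, 29 of 43 below 0), presynaptic release genes (-0.19, 33 of 47), postsynaptic density scaffolds (-0.19, 22 of 30), GABA-A receptor subunits (-0.10, 7 of 12) and glutamate receptors (-0.10, 10 of 15). Calcium-calmodulin kinases and calcineurin had a median of -0.28 with 17 of 21 below 0. No member passed. The medians of the GABA-A and glutamate receptors each changed sign in 4 of 28 alternatives, up to 0.03 and 0.10, and that of the channels was -0.06 without WT swim replicate 2. Kcnc1, the fast-spiking potassium channel Kv3.1, had an interaction of -1.21 ± 0.44 (unadjusted p = 0.00883), Gabrb2, a GABA-A subunit, of -0.75 ± 0.32 (unadjusted p = 0.022), and Slc17a7, the vesicular glutamate transporter VGLUT1, of -0.91 ± 0.41 (unadjusted p = 0.033). Among cAMP phosphodiesterases Pde7b had -1.36 ± 0.51 and Pde4b had -0.58 ± 0.27. Cnksr2, a scaffold of the postsynaptic density, had -0.55 ± 0.25 and Cacnb4, a calcium channel subunit, had -0.65 ± 0.26. Camk2d, a CaM kinase II subunit, was on the other side of 0 at 0.82 ± 0.47. Ras-ERK regulators had a median of -0.30 (19 of 25 below 0), core clock genes of -0.32 (12 of 21) and phosphodiesterases and adenylyl cyclases of -0.21 (11 of 17). Across all 34 lists with a measured member, 29 medians were below 0 and 5 above, and 19 kept 1 sign in all alternatives. The median of all genes was itself -0.06, and 0.002 with RLE scaling. Below 0 were 55.0% of all genes and 65.5% of those with no gene opposite, beside which the counts of each list stand. With single libraries left out, 32 of the 34 medians moved by over 1.5 times at least once. The most moved without WT naive replicates 2 and 3 (20 and 19), WT swim replicate 2 (18) and Shank3 naive replicate 1 (17).

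**Figure D4:**
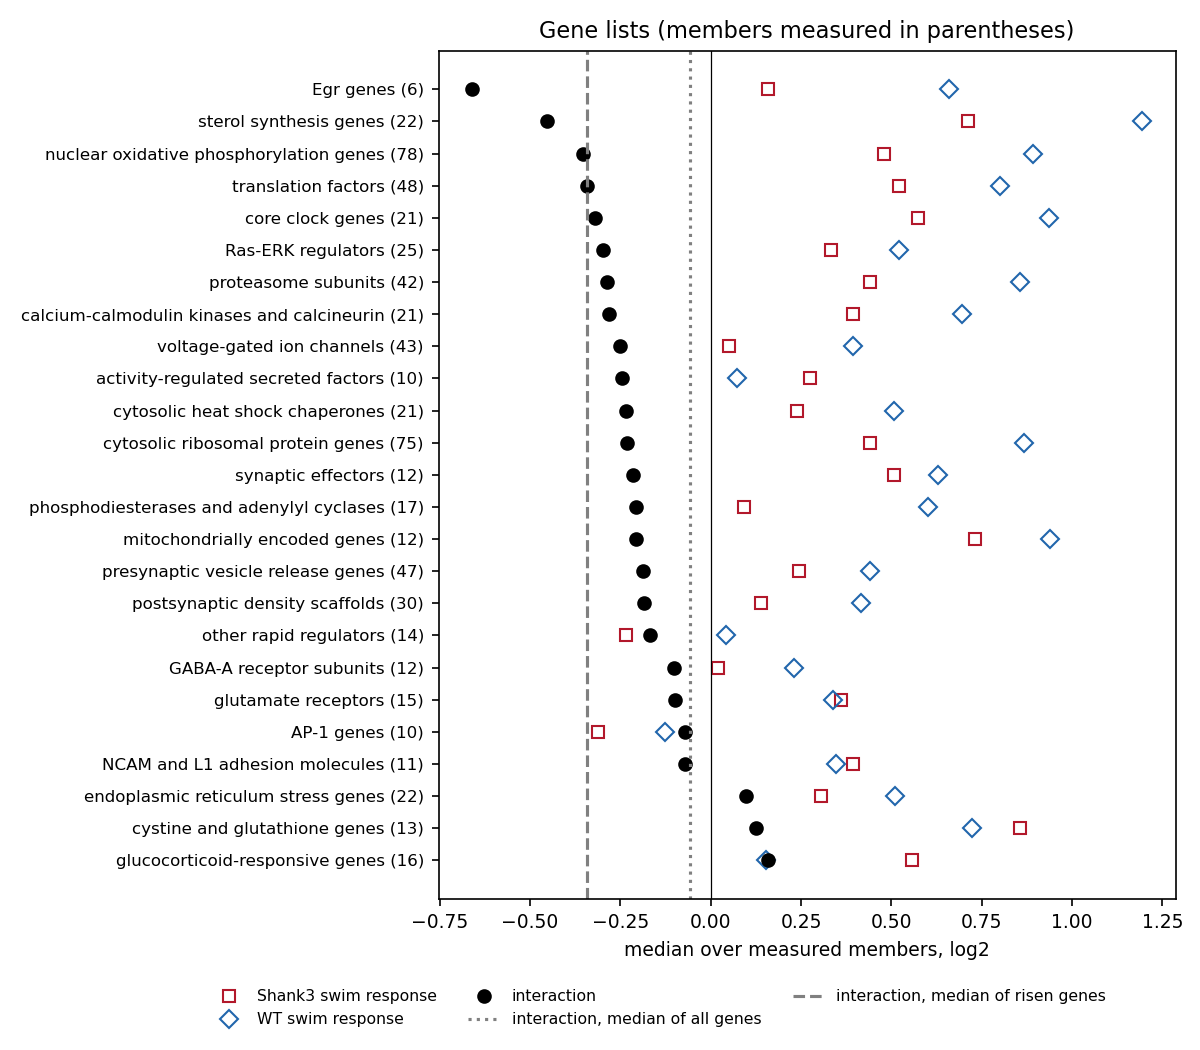
Median log2 swim response in Shank3 mice (red squares) and in WT mice (blue diamonds) and median interaction (black points) over the measured members of each gene list. The dotted line is the median interaction of all genes, -0.06, and the dashed line that of all genes raised by the swim, -0.34; most lists lie between or near these lines.

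The genes that responded to the swim had smaller median fold changes in Shank3 mice than in WT mice. They were chosen by the mean of the responses of the genotypes, each weighted equally: 2803 rose (24.7% of those tested) and 2604 fell (23%). Of those that rose, 76.0% had an interaction below 0, with a median of -0.34 and median responses of 0.72 in Shank3 mice and 1.09 in WT mice. Of those that fell, 75.5% had an interaction above 0, with a median of 0.14 and median responses of -0.79 in Shank3 mice and -0.94 in WT mice. Most genes that fell, 2102 of 2604, overlap an exon on the opposite strand. Where no gene lies opposite, the 1548 genes that rose had a median interaction of -0.38 and the 396 that fell of 0.15. Those values came from the fit of all genes. In a fit restricted to genes without an opposite neighbour the medians were -0.20 (1454 that rose) and 0.30 (394 that fell). These shares describe genes that move together in 17 libraries and carry no p. The genes were chosen in these same libraries, where the response had a median SE of 0.376 in WT mice and 0.358 in Shank3 mice. The noisier response weighs more on such a choice, even with equal weights. Its part in these medians and in the naive differences of these genes was not tested.

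For these genes the genotypes differed more in naive mice than after the swim. For genes that rose, the median genotype difference, Shank3 over WT, was -0.01 after the swim and 0.33 in naive mice. For genes that fell it was -0.02 after the swim and -0.17 in naive mice. In single libraries the median deviation of the genes that rose was 0.27 to 0.75 log2 units in Shank3 swim libraries, against -0.38 to -0.06 in Shank3 naive libraries. It was -0.12 to 0.80 in WT swim libraries, against -0.63 to -0.46 in WT naive libraries. For these genes the naive groups of the genotypes did not overlap, while the swim groups did. The same held over all genes at a smaller size. Median deviations over all genes were 0.047 to 0.086 in Shank3 naive libraries and -0.038 to 0.038 in WT naive libraries. For the genes that fell, the median deviation was 0.22 to 0.52 in Shank3 naive libraries and 0.52 to 0.54 in WT naive libraries, which overlapped. WT swim replicate 1 lay among the Shank3 naive libraries for the genes that rose (-0.12) and just below them for the genes that fell (0.16). These levels ran with the share of pair counts on coding rows, which was 11.4% in WT swim replicate 1, 16.3 to 17% in the 3 swim libraries with the highest levels of genes that rose, and 10.7 to 11% in WT naive libraries. The share comes from the same counts, and 2102 of the 2604 genes that fell overlap an exon on the opposite strand. The levels and the share are therefore not independent. With that share in the model the median interaction was -0.29 for the genes that rose and 0.03 for those that fell. Its part in the result was not tested beyond this fit. Leaving out each library in turn gave medians of -0.42 to -0.23 for genes that rose and 0.07 to 0.28 for genes that fell. The 4 values at the ends of these ranges were those without Shank3 swim replicate 3 and Shank3 naive replicate 1 for the rise, and without Shank3 swim replicate 1 and WT swim replicate 1 for the fall.

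**Figure D5:**
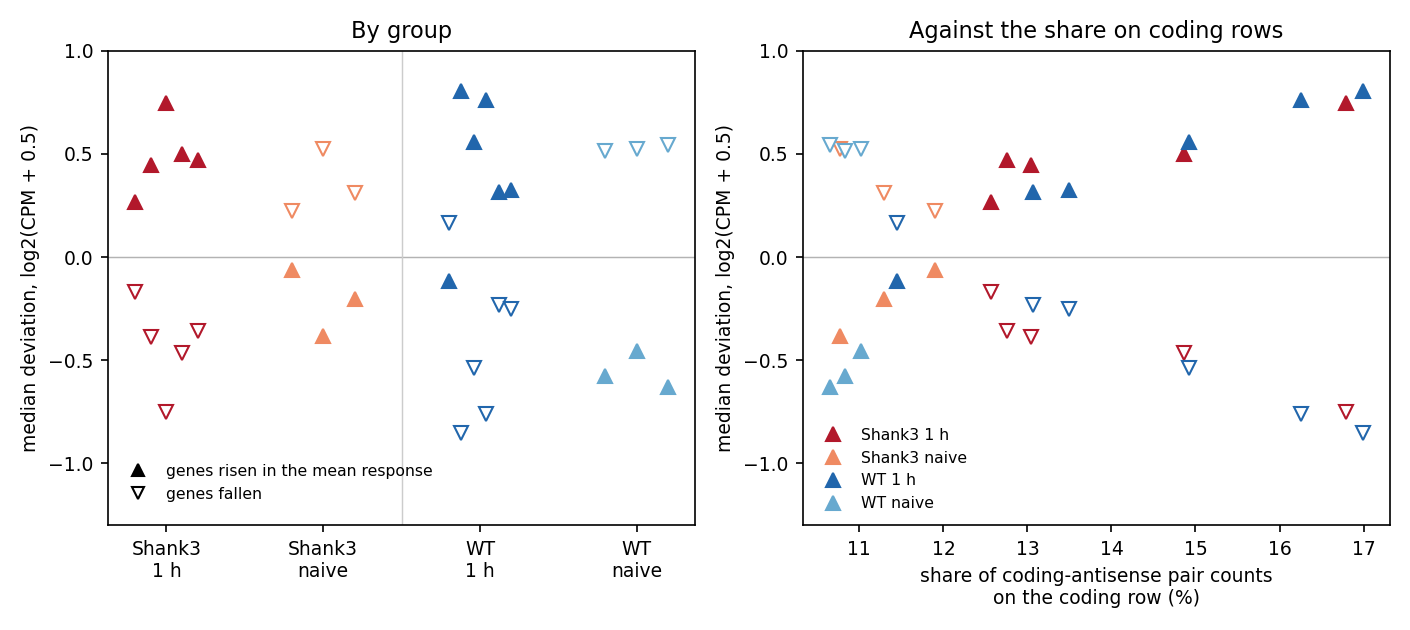
Median deviation of log2(CPM + 0.5) from the mean of the group means in each library, for the genes that rose (filled triangles) and fell (open triangles) in the mean response, by group (left) and against the share of counts of coding and antisense row pairs that lie on the coding row (right). Naive Shank3 libraries sit between -0.38 and -0.06 and naive WT libraries between -0.63 and -0.46 for genes that rose. With a higher share on coding rows, levels are higher for genes that rose and lower for genes that fell.

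The genes with the smallest p of the mean response had interactions between -0.63 and 0.37. Irf2bpl, a transcriptional regulator, had 109.7, 91.3, 81.8, 107 and 69.3 CPM in Shank3 swim libraries, against 146, 196 and 195 CPM in Shank3 naive libraries. It ran from 71.3 to 115 CPM (median 103) in WT swim libraries, against 239, 174 and 206 CPM in WT naive libraries. Its interaction was 0.14 ± 0.31 (-0.48 to 0.76). The voltage-gated potassium channels Kcna6 and Kcna1 fell by 1.32 ± 0.26 in Shank3 mice and 1.32 ± 0.26 in WT mice and by 0.99 ± 0.22 in Shank3 mice and 1.11 ± 0.22 in WT mice, with interactions of 0.01 ± 0.38 (-0.75 to 0.77) and 0.12 ± 0.31 (-0.51 to 0.75). Fxyd1, a regulator of the sodium pump, had an interaction of 0.12 ± 0.44 and Tubgcp2, a gamma-tubulin complex subunit, of 0.33 ± 0.35. The falling genes with the smallest p of the mean response were Tubgcp2, Kcna6, Fxyd1, Obsl1, Tmem121b, Irf2bpl, Epb41, Kcna1, Ttc9b and Cep63, and the rising ones Prpf39, Siae, Cox6c, Gt(ROSA)26Sor, Adam17, Sla2, Pde1a, Cdc37l1, Ccdc84 and Prg4. All 20 changed in both genotypes, and 0 passed the test of the interaction. Of the 10 falling genes named by the smallest p of the mean response, 7 had an interval within 1 log2 unit of 0, and of the 10 rising genes 3 did, beside 22.8% of all genes. A small p favours a small error, so these intervals are a description. Among the rising genes, 9 of 10 overlap an exon on the opposite strand.

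Prpf39, a splicing factor gene whose row overlaps Fkbp3, had 787, 799.7, 652, 757 and 822 CPM in Shank3 swim libraries, against 158, 112 and 123 CPM in Shank3 naive libraries. It had 325, 777, 691, 795, 828 and 664 CPM in WT swim libraries, against 112, 125 and 119 CPM in WT naive libraries. All swim libraries lay above all naive libraries, and WT swim replicate 1 was the lowest of them. Its interaction was 0.03 ± 0.46 (-0.89 to 0.95), and Fkbp3 had -0.39 ± 0.33. Siae, a sialic acid esterase that overlaps Tbrg1, had -0.49 ± 0.71. Pde1a, a calmodulin-dependent phosphodiesterase with no gene opposite, rose by 1.02 ± 0.22 in Shank3 mice and 1.65 ± 0.23 in WT mice, with an interaction of -0.63 ± 0.31 (-1.25 to -0.00, unadjusted p = 0.0489).

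The genes with the smallest unadjusted p are described by the parts of the contrast that chose them, with no test. The 10 lower genes with the smallest p were Ppm1d, Atp6v0b, Acat2, Mindy3, Ncam2, Ndufaf3, Pfdn1, Myo16, Ubxn7 and Zfp617, with interactions from -4.11 to -1.33 and unadjusted p from 1.95e-05 to 0.00128. In all 10 the WT swim response passed the threshold as a rise, and the genotype difference was -0.45 to 0.25 after the swim, against 1.02 to 3.93 in naive mice. Their WT naive counts, summed over 3 libraries, were 1 to 51 with a median of 4. The 10 genes on the other side were Phf21a, Commd4, Far2os2, Mir1905, Naa10, Zbtb41, Fmnl2, Rspo2, Mettl25 and Naa38, with interactions from 1.63 to 3.99. Their genotype difference was -3.42 to -0.59 in naive mice, and their Shank3 naive counts summed to 1 to 40 with a median of 7.5. No gene passed between genotypes at an adjusted p under 0.05, after the swim (0 called, 0%, 205 at an unadjusted p under 0.05) or in naive mice (0 called, 0%, 548 at an unadjusted p under 0.05).

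Ppm1d had 16, 11, 15, 8 and 17 counts in Shank3 swim libraries, against 10, 7 and 5 counts in Shank3 naive libraries. It had 7, 18, 14, 20, 7 and 13 counts in WT swim libraries, against 0, 1 and 0 counts in WT naive libraries. In CPM only the WT naive libraries lay below the others. Ppm1d (chr11:85311244-85347066, plus strand), the p53-induced phosphatase Wip1, had an interaction of -4.11 ± 0.89 (adjusted p = 0.221), a value that depends on 1 count in the WT naive group. WT swim over WT naive was 19-fold by summed counts (95% counting interval 3.31 to 759.6). Ncam2, a neural adhesion molecule, had 16, 12, 23, 9 and 20 counts in Shank3 swim libraries, against 5, 8 and 6 counts in Shank3 naive libraries. It had 10, 15, 11, 16, 7 and 9 counts in WT swim libraries, against 1, 0 and 0 counts in WT naive libraries, and its interaction was -3.48 ± 0.85. Both genes share the pattern of 1 count over the 3 WT naive libraries.

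Acat2 had 15, 26, 35, 15 and 15 counts in Shank3 swim libraries, against 30, 21 and 13 counts in Shank3 naive libraries. It had 20, 25, 16, 32, 10 and 26 counts in WT swim libraries, against 4, 4 and 4 counts in WT naive libraries. Acat2 (chr17:12942890-12960747, minus strand), a cytosolic acetyl-CoA acetyltransferase that feeds sterol synthesis, fell after the swim by 0.91 ± 0.32 in Shank3 mice (adjusted p = 0.0498) and rose by 1.39 ± 0.44 in WT mice (adjusted p = 0.0144). It was the only one of the 10 whose responses passed the threshold in both genotypes, with opposite signs. Its interaction was -2.30 ± 0.54 (-3.38 to -1.21, adjusted p = 0.392).

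Atp6v0b had 26.8, 30.0, 35.4, 33.1 and 41.2 CPM in Shank3 swim libraries, against 36.4, 44.2 and 67 CPM in Shank3 naive libraries. It ran from 31.5 to 48.9 CPM (median 40.2) in WT swim libraries, against 13.8, 28.8 and 28.2 CPM in WT naive libraries. Atp6v0b (chr4:117884326-117887333, minus strand), a subunit of the vacuolar proton pump, overlaps exons of Gm12841 on the opposite strand, whose counts summed to 21745 over all 36 libraries against 2570 for Atp6v0b. The interaction was -1.33 ± 0.31 (adjusted p = 0.392) for Atp6v0b and -0.04 ± 0.38 for Gm12841. With antisense rows summed with their coding row it was -0.11. Ndufaf3, a complex I assembly factor that overlaps Impdh2, had 39, 8 and 29 counts in Shank3 naive libraries, against 2, 3 and 12 counts in WT naive libraries. Its interaction was -1.93 ± 0.53 and reached -3.17 (adjusted p = 0.0452) without WT naive replicate 3, whose count is the highest of its group. That setting called 1 other gene, a row without a symbol, and the remaining alternatives called 0.

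Among the 10 higher genes the fitted level was lower in Shank3 naive than in WT naive mice throughout. Fmnl2 had 12, 15, 28, 11 and 23 counts in Shank3 swim libraries, against 2, 1 and 4 counts in Shank3 naive libraries. It had 4, 21, 10, 11, 2 and 10 counts in WT swim libraries, against 4, 6 and 4 counts in WT naive libraries. Fmnl2, a formin that extends actin filaments, had an interaction of 2.01 ± 0.64 (unadjusted p = 0.00325), and it was higher in Shank3 than in WT swim libraries by 0.70 and lower in naive ones by 1.31. Phf21a, which reads unmethylated histone H3, had 2.96 ± 0.86, Naa10, an N-terminal acetyltransferase, 3.62 ± 1.19, and Rspo2, a secreted enhancer of Wnt signalling, 1.68 ± 0.55. In Mettl25 and Naa38 the difference between genotypes was larger after the swim than in naive mice. Mettl25 had 9, 15, 18, 9 and 17 counts in Shank3 swim libraries, against 14, 13 and 13 counts in Shank3 naive libraries. It had 4, 13, 5, 4, 4 and 4 counts in WT swim libraries, against 15, 16 and 16 counts in WT naive libraries. Its fold change was -0.89 ± 0.37 in Shank3 mice, which did not pass the threshold, and it fell by 2.52 ± 0.39 in WT mice. The interaction was 1.63 ± 0.54, and the row overlaps an exon of Ccdc59.

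Cell type markers were compared for the same contrast. In bulk RNA of tagged ribosomes, fewer cells of a type and less RNA per cell cannot be told apart. The 25 measured pyramidal genes had a median interaction of -0.08, with 10 above 0, beside 45.0% of all genes. The 12 astrocyte genes tested had -0.30, and all 18 listed astrocyte rows summed to 241 to 277 CPM in Shank3 swim libraries, 231 to 286 in Shank3 naive, 210.4 to 312 in WT swim and 175 to 245 in WT naive libraries. The 6 interneuron genes tested had -0.77, and all 19 listed interneuron rows summed to 82.8 to 174 CPM in Shank3 swim, 99.9 to 115 in Shank3 naive, 81.2 to 204 in WT swim and 102 to 127 in WT naive libraries. Both sums overlapped between all 4 groups, and their part in the result was not tested. The 4 oligodendrocyte genes tested had 0.30, and all 15 listed rows had overlapping sums of 90.4 to 116 CPM in Shank3 swim and 84.8 to 121 CPM in WT swim libraries. The fullest oligodendrocyte row, Cnp, held 54.2% of the list's counts and overlaps an exon on the opposite strand. So do the fullest astrocyte row, Slc7a10 (39.8%), and the fullest interneuron row, Dlx1 (36.8%). The 13 listed microglial rows did not overlap between swim and naive libraries. They summed to 406 to 669 CPM in Shank3 swim, against 873 to 983 CPM in Shank3 naive libraries. In WT mice they summed to 403 to 865 CPM after the swim, against 1008 to 1092 CPM in naive libraries. A single row that overlaps an exon on the opposite strand held 98.0% of these counts, 4 of the 13 rows, P2ry12 among them, were at 0 in all 17 libraries, and the 2 genes tested had a median interaction of -0.22.

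The interaction at 4 h, in the 19 libraries of cohort 2, was set beside that at 1 h. These were 6 from Shank3(deltaC/+) mice killed 4 h after the swim, 4 from naive Shank3(deltaC/+) mice, 5 from WT mice killed 4 h after the swim and 4 from naive WT mice of that cohort. No gene passed the test of the difference between the times (0 called, 0%, 425 at an unadjusted p under 0.05; DESeq2 and limma also 0). Time and cohort cannot be told apart here. In cohort 2 the ribosomal RNA share was 13.5% in Shank3 naive replicate 6 and 38.6% in Shank3 naive replicate 7. The share of pair counts on coding rows was 17 to 33.1% in 4 h swim libraries, against 11.4 to 17% at 1 h. The part of these shares in the 4 h values was not tested. Of the 29 lists with medians below 0 at 1 h, 9 were below 0 and 20 above 0 at 4 h. Medians at 4 h were 0.11 for oxidative phosphorylation, 0.11 for ribosomal proteins, 0.04 for translation factors, 0.06 for proteasome subunits and 0.33 for sterol synthesis. The Egr genes had 0.40 and the heat shock chaperones -0.01. Lists below 0 at both times included other rapid regulators (-0.17 at 1 h and -0.10 at 4 h), mitochondrially encoded genes (-0.21 and -0.09) and cold-inducible RNA-binding proteins (-0.13 and -0.29). Slc7a11 had an interaction of -0.38 ± 0.96 at 1 h and 4.37 ± 0.82 at 4 h, with an unadjusted p of 5.66e-04 and an adjusted p of 1 for the difference in edgeR. Fos had -0.40 at 4 h and Nr4a1 -0.45.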

How the data were processed

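Ribosome-bound RNA was pulled down from cortical tissue of RiboTag mice and sequenced as paired reads from a stranded mRNA kit, per the labels' protocols, with a stated depth of 15 M reads. The authors deposited a count per gene and library, in 55470 rows. The submitters' processing notes name Trimmomatic 0.39, FastQC, HISAT2 2.2.0, StringTie 2.1.3, Salmon 1.4, DESeq2 and mm10 without their roles. The strand setting of the counting and the annotation were not given in the sources used here, so positions and overlaps came from GENCODE vM21 on mm10.

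Counts were tested with edgeR 4.0.16 (R 4.3.3), by a robust quasi-likelihood fit with TMM scaling over 8 groups and 36 libraries with 28 residual degrees of freedom, after its default filter on low counts, which kept 11341 genes. P-values were adjusted by the Benjamini-Hochberg method, and genes were called at 0.05. The interaction is the Shank3 swim response minus the WT swim response, and intervals are at 95%. CPM values are counts scaled to TMM library sizes, and medians over genes in single libraries used log2(CPM + 0.5). The procedure was run on simulated counts with known interaction folds and otherwise equal group means. The simulation held no swim response, so it does not cover genes that are low only in naive libraries. Named genes were the 10 lower and 10 higher with the smallest interaction p, the 10 rising and 10 falling with the smallest p of the mean response (mean log2 CPM of at least 1, provisional names left out), up to 2 members of each list by interaction p, a preset set of stress and activity genes, and the fullest opposite row of a gene so named. The members and lists were chosen with earlier results of these data known. The 28 alternatives covered scaling, tool (DESeq2 1.42.0, limma 3.58.1), the low-count filter, cohort 1 alone, a replicate block, the share of pair counts on coding rows, strand overlap, ribosomal RNA and each library left out. Total counts of 0.884 to 2.01 M limit the precision of low genes, and intervals on count ratios cover counting error only. In 31 within-group pairs of libraries chi-square over degrees of freedom was 2.25 to 21.9, so no library was counted as a repeat of another.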

Additional observations from a re-analysis of the deposited data

Results flagged for a closer look

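Of 144 groups of values examined for a single library far from the rest, 6 were picked out, and chance alone picks out about 1 in 20 groups. The summed share of ribosomal RNA rows was 10.5% in WT swim replicate 5. Ncam2 stood high at 12.6 CPM in WT swim replicate 1, and Far2os2 stood high at 11.8 CPM in Shank3 swim replicate 1. Prpf39, the leading rising gene, stood low at 324.8 CPM in WT swim replicate 1, the library whose levels of swim-responsive genes lay near naive libraries. Slc7a11, the cystine transporter, stood high at 249.0 CPM in Shank3 swim replicate 3. Cacnb4 stood at 109.8 CPM in the same library, the farthest from its group.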

How the results depend on the processing

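The interaction called 0 genes in every alternative run except the one without WT naive replicate 3, for a range of 0 to 2 genes over libraries left out. The counts of each genotype's own response moved more. For Shank3 mice the count was 2118 in cohort 1 alone, 184 among genes with no gene opposite, 493 with a replicate block, 29 without the libraries above 5% ribosomal RNA (chosen after seeing the data), and 58 to 1704 with one library left out (883 without Shank3 naive replicate 1, and 910, 766 and 810 without Shank3 swim replicates 5, 4 and 2). For WT mice it was 804 among genes without an opposite neighbour, 2461 with the pair share as a covariate and 2325 to 4612 with one library left out (2568, 2577 and 2325 without WT naive replicates 1, 2 and 3). The mean response called 1314 among genes with no gene opposite. Without the low-count filter the genotype difference called 1 gene after the swim and 2 in naive mice, and the difference between 1 h and 4 h called 3. In naive mice it called 1 with the pair share as a covariate and 0 to 3 with a library left out, and the 1 h and 4 h difference 0 to 1. That difference had no value in cohort 1 alone. The labels do not say whether replicate numbers pair the libraries. Of 20 same-numbered pairs 3 had deviations correlated above 0.1 (-0.17 to 0.31). Differently numbered pairs were not compared, so these values do not settle whether libraries are paired. With the replicate block the interaction called 0. With a library left out, the interaction of detected rows was -570 to 60.3, of the ribosomal RNA share -0.983 to 1.80 points and of total counts -0.0587 to 0.211 M.

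Of 68 genes, 51 kept the sign of the interaction in all alternatives, and 17 changed it in 88 of 1866 values, and the intervals of those 17 with all libraries spanned 0. With limma the values were 0.39 for Fos, 0.00766 for Fosb, 0.38 for Nr4a3 and -0.00367 for Sgk1. With the pair share they were -0.0427 for Prpf39, -0.0438 for Kcna6, 0.10 for Shank3, 0.13 for Fosb and 0.0464 for Nr4a1. Where no gene lies opposite they were 0.0655 for Fos, 0.0918 for Fosb, 0.0661 for Nr4a1, 0.13 for Nr4a3 and 0.0827 for Homer1. Nr4a3 was 0.0104 with RLE scaling and 0.0102 with DESeq2, and Gm12841 was 0.01459 and 0.0146. With no filter Prpf39 was -0.0128 and Kcna6 -0.0221. Without the libraries above 5% ribosomal RNA Prpf39 was -0.00363, Kcna6 -0.0715, Fosb 0.00743 and Nr4a3 0.47, and with antisense rows summed Bdnf was -0.00505. With a library left out the ranges were -0.44 to 0.44 for Bdnf, -0.91 to 0.18 for Fkbp5, -0.62 to 0.98 for Fos, -0.30 to 0.0767 for Fosb, -0.30 to 0.31 for Fxyd1, -0.19 to 0.11 for Gm12841, -0.23 to 0.0341 for Homer1, -0.38 to 0.10 for Junb, -0.12 to 0.29 for Kcna1, -0.16 to 0.16 for Kcna6, -0.62 to 0.37 for Nr4a1, -0.55 to 0.52 for Nr4a3, -0.33 to 0.97 for Per1, -0.11 to 0.20 for Prpf39, -0.45 to 0.84 for Sgk1, -0.29 to 0.17 for Shank3 and -1.24 to 0.11 for Slc7a11. The cause of these changes was not tested.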

Other observations

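Coding rows and the antisense rows across from them were compared in 827 pairs. The antisense row held the higher level in 677 pairs (81.9%). The median interaction was -0.09 for coding rows and 0.12 for antisense rows, and the signs differed in 409 pairs. Of 34 coding rows with an unadjusted p under 0.05, 18 faced an antisense row of the opposite sign. The 1034 antisense rows tested had a median interaction of 0.13, beside -0.21 for the 4901 genes with no gene opposite. In a fit restricted to genes with no gene opposite, the median over 4339 genes was -0.03.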
